A study of Mus musculus with 12 samples.

Results

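The genes encoding the proteins of the cytosolic ribosome were followed in CD4+ T cells of the lung, the helper lineage of T lymphocytes, from mice that had aspirated Escherichia coli or phosphate-buffered saline (PBS). Genes were taken by symbol, as those named Rpl, Rps or Rplp with a number and Rpsa, without the kinases Rps6k, without Rps19bp1 and without entries marked as pseudogenes. This gave 85 of the 19434 genes counted. They comprised 43 genes of the large subunit, 31 of the small subunit, 3 of the ribosomal stalk (Rplp0, Rplp1 and Rplp2) and 8 paralogs of such genes (Rpl22l1, Rps27l, Rpl36al, Rpl7l1, Rpl39l, Rps4y2, Rpl3l and Rpl10l). Of the 85, 83 had enough counts to be tested. Rpl10l had 0 counts in all 12 libraries and Rpl3l had 2 counts in total.

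The mice were C57BL/6NJ of both sexes, and no genetic alteration is given for any group. They aspirated 2800000 colony-forming units of E. coli, or PBS as the control, on day 5 of life (neonates) or day 15 (juveniles), and cells were isolated 48 h later by magnetic enrichment and cell sorting. The 4 groups, neonatal PBS (NP), neonatal E. coli (NE), juvenile PBS (JP) and juvenile E. coli (JE), held 3 RNA-seq libraries each. Cells of 3 neonates or 2 juveniles were pooled for a library, with other mice in each, so replicates are pools and differences between single mice were not measured. Libraries held 6035445 to 8129983 counts. Levels are given in CPM, counts relative to a library's total over the genes tested after scaling between libraries. A count of 0 allows up to 3 counts, 0.374 to 0.494 CPM depending on the library, and covers counting error only.

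A ribosome joins a small subunit, which decodes the messenger RNA, to a large subunit, which forms peptide bonds, and each holds ribosomal RNA and many proteins made in about equal number. The stalk proteins P0, P1 and P2 recruit elongation factors to the large subunit. Messenger RNAs of most of these proteins begin with a C followed by a run of pyrimidines, the 5′ terminal oligopyrimidine (TOP) tract, through which their translation follows growth signals passed on by the kinase mTOR and the RNA-binding protein Larp1. In T cells, quiescent lymphocytes carry few ribosomes, and activated ones enlarge their ribosome pool before they divide.

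Start sites listed in RefSeq (build GRCm38.p6) were found for 64 of the 85 genes. A C at the listed start followed by at least 4 further C or T was present in 13 of the 64 (20.3%), against 3.01% of the 27025 genes in the same table. Tracts that begin a few bases from a listed start were not counted. The windows below show 10 bases before and 20 bases from a listed start, with the tract in capitals, for genes whose values the later comparisons turn on.
Rps6: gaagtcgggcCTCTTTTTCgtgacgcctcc
Rps27: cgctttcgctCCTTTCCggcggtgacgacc
Rps21: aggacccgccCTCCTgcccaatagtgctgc
Rpl35: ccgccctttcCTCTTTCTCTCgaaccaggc
Rpl28: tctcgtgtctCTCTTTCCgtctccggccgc
Rplp2: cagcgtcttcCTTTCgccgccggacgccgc
Rpl15: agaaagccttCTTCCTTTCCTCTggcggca
Rps27l: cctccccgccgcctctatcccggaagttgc
Rpl22l1: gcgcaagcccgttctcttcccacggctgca
The first 7 carry a tract of 5 to 13 bases. The last 2 are paralogs without one at the listed start, and are shown because their counts are later set against those of their parents. Rps21 and Rps27l each have a second listed start without the tract. The windows lie at chr4:86857348-86857377 on the minus strand (Rps6), chr3:90213629-90213658 minus (Rps27), chr2:180257369-180257398 plus (Rps21), chr2:39005112-39005141 minus (Rpl35), chr7:4792955-4792984 plus (Rpl28), chr7:141447641-141447670 plus (Rplp2), chr14:18270967-18270996 minus (Rpl15), chr9:66946076-66946105 plus (Rps27l) and chr3:28805498-28805527 plus (Rpl22l1).

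In the 300 bases around the start (250 before it and 50 from it), CTTTCC was found on the gene's strand in 40.6% of the 64 genes and 16.01% of all genes, partly within the tract itself. The letters CCGGAAG, the core bound by ETS-family factors, were found on either strand in 40.6% against 9.93%. The letters AAGATGG, a core of YY1 sites, occurred in 15.6% against 7.28%, and the GC box GGGCGG in 62.5% against 38.2%, both on either strand. These are matches of letters and not measured sites.

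The sorted cells carried the markers of the label. The 7 T cell identity genes counted (Cd3d, Cd3e, Cd3g, Cd4, Cd28, Lat and Lck) summed to 4390 to 6000 CPM in the 12 libraries. Juvenile PBS replicate 2 stood apart from the other 2 libraries of its group and is described first, since many results below use it. In it 62 of the 83 tested genes were higher than in both other libraries and 13 were lower, against 40.4% and 40.2% of all tested genes. The members' median log2 ratio to the mean of the other 2 was 0.43, and single genes went from -0.89 to 1.08. The lowest was Rpl10, a large-subunit protein near the peptidyl transferase centre, at 316, 172 and 321 CPM in replicates 1, 2 and 3. The highest ratio was that of Rpl26, and both genes were picked here after their values were seen. Replicate 2 also had more cell cycle transcript (3300 CPM over 16 genes, against 1972 and 1924) and more immature T cell transcript (938 CPM over 6 genes, against 643 and 574). The part of these differences in the results was not tested. Values without this library are given beside many of the results below that it moves.

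Summed over all members, the ribosomal protein genes made up a similar share of counts in both neonatal groups and the smallest share in juvenile E. coli cells. The share of the counts of tested genes was 3.75%, 3.97% and 3.90% in the 3 neonatal PBS libraries. After E. coli it was 4.44%, 4.05% and 3.79% in neonates, which overlapped with their controls. In juveniles it was 4.15%, 5.32% and 4.20% after PBS and 2.98%, 2.87% and 3.31% after E. coli. All 3 juvenile E. coli libraries lay below the other 9. The group means were 3.87% ± 0.11 (SD, n = 3), 4.09% ± 0.32, 4.55% ± 0.66 and 3.05% ± 0.23 in the same order, and the juvenile PBS mean was 4.17% without replicate 2. In bulk libraries, fewer cells that hold much of a transcript and less transcript in each cell cannot be told apart.

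**Figure D1:**
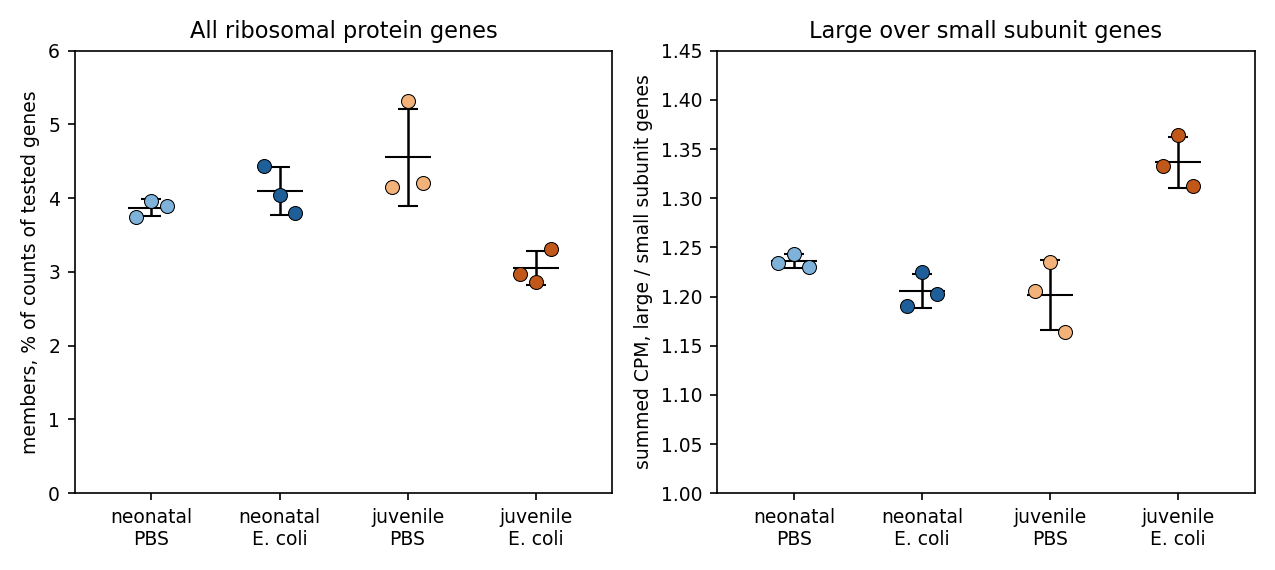
Left, the ribosomal protein genes' share of the counts of tested genes (%), and right, the ratio of summed CPM of large-subunit to small-subunit genes, by group. Points are libraries, horizontal bars group means and error bars ± 1 SD (n = 3), and the right axis starts at 1. The juvenile E. coli libraries lie lowest on the left (2.87% to 3.31%) and highest on the right (1.31 to 1.36).

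Single genes followed the same order with few exceptions. The juvenile E. coli mean was the lowest of the 4 group means in 78 of the 83 tested genes, and the juvenile PBS mean was the highest in 65. The 5 exceptions to the first were all paralogs (Rpl22l1, Rpl39l, Rpl7l1, Rps27l and Rps4y2). In 49 of the 83 genes every juvenile E. coli library lay below all 9 others, as in 6.36% of all tested genes. Spread within a group differed: the median SD per gene was 4.61% of the mean after PBS and 9.06% after E. coli in neonates, and 21.6% and 9.96% in juveniles.

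Libraries of a group also differed in many of these genes at once. Neonatal E. coli replicate 1 held the highest value of its group in 73 of the 83 genes, and juvenile E. coli replicate 3 in 70. Neonatal PBS replicate 2 held the highest in 57. Over all tested genes each of these libraries held the highest value in 33.0% to 35.4%. Juvenile E. coli replicate 3 also had more naive T cell transcript than the other 2 (8107 CPM over 10 genes, against 6191 and 6460) and less cell cycle transcript (3907 CPM, against 5873 and 4927). Neonatal PBS replicate 1 held the lowest value of its group in 48 of the 83 genes, against 33.4% of all tested genes. It had more immature T cell transcript (1195.5 CPM, against 744 and 681) and more cell cycle transcript (4934 CPM, against 4020 and 4324).

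**Figure D2:**
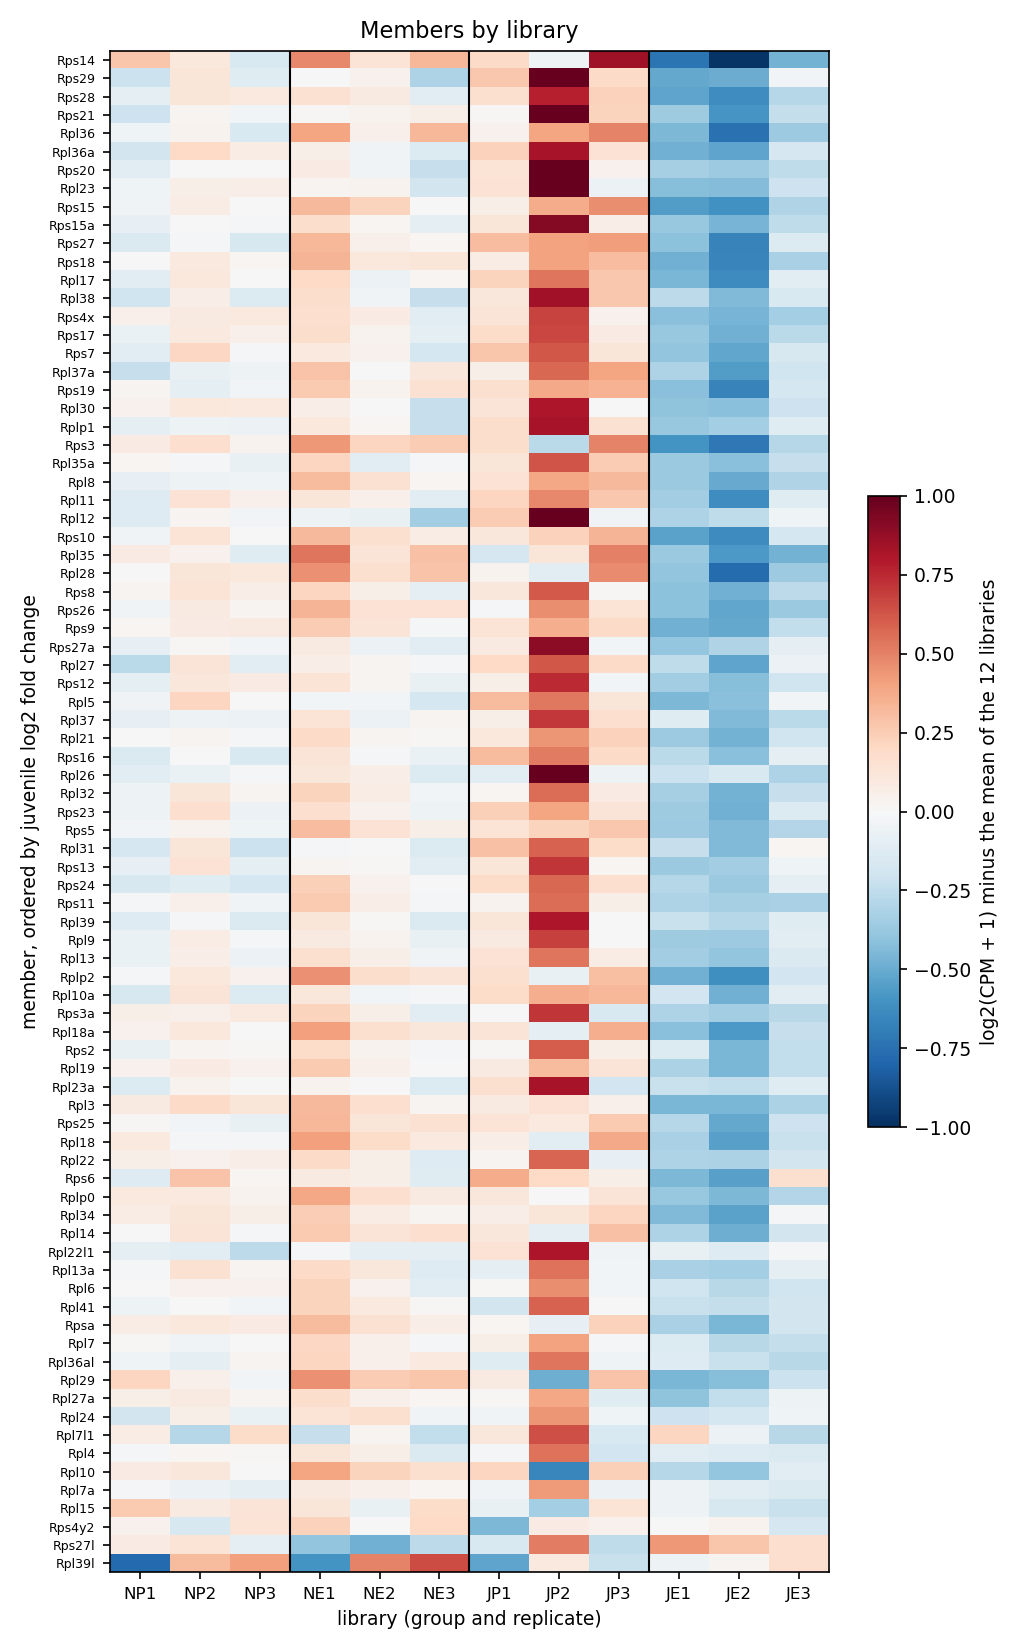
Level of each of the 83 tested genes (rows, ordered by the juvenile response) in the 12 libraries (columns), as log2(CPM + 1) minus the gene's mean over the libraries. The scale ends at ± 1, and values beyond it take the end colour. The 3 juvenile E. coli columns are below the mean in almost every row, and the column of juvenile PBS replicate 2 holds the strongest values above it, apart from genes such as Rpl10 and Rpl29.

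In neonates, whether E. coli changed these genes was asked by comparing the neonatal E. coli and PBS groups. None of the 83 genes passed the test (edgeR quasi-likelihood, adjusted p under 0.05), against 1.19% of all 11062 genes tested. DESeq2 and limma voom also called 0, and 7 genes had an unadjusted p under 0.05. The median log2 fold change was 0.076, against -0.003 over all tested genes. In 22 genes the 3 E. coli libraries lay above the 3 PBS libraries, against 11.2% of all genes, and in 1 gene (Rps27l) below, against 10.6%. Rps27, a zinc-finger protein of the small subunit (chromosome 3, 90212522 to 90213651, minus strand), was at 345, 376 and 341 CPM after PBS and at 479, 394 and 386 CPM after E. coli. The groups did not overlap, and the log2 fold change of 0.25 ± 0.12 (SE) had an adjusted p of 0.42. Rplp0, the scaffold of the stalk (chromosome 5, 115559467 to 115563727), was at 1658, 1652 and 1580 CPM after PBS and 2023, 1734 and 1644 CPM after E. coli, which overlapped (0.14 ± 0.08, adjusted p = 0.54).

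In juveniles the same comparison gave a fall across both subunits. Of the 83 genes, 69 fell and 0 rose, against 9.42% of all tested genes that fell. The median log2 fold change was -0.58, against -0.012 over all tested genes. The 3 libraries of juvenile E. coli cells lay below the 3 PBS libraries in 70 of the 83, against 16.3% of all genes. Among the 603 other tested genes with transcripts under 1000 bases, a length range that holds most ribosomal protein genes, 44 fell, 83 rose and the median was -0.078. Without juvenile PBS replicate 2, 66 genes fell and 64 of the 69 calls remained, with a median of -0.47. More of all tested genes were called in that setting: 1290 fell, against 1042 with all libraries. The share called in either direction was 28.4%, against 24.8%.

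The small subunit fell throughout: 31 of 31 genes passed, with a median log2 fold change of -0.65 and a range from -1.11 to -0.38. Rps14, a small-subunit protein needed to mature the 18S ribosomal RNA, was at 73.5, 62.3 and 116 CPM after PBS and at 38.2, 32.0 and 46.0 CPM after E. coli. Its groups did not overlap, and its log2 fold change of -1.11 ± 0.20 (adjusted p = 0.00095) was the largest fall of all 83. Rps21 (chromosome 2, 180257377 to 180258445) was at 107, 221 and 125 CPM after PBS and at 83.4, 70.7 and 90.1 CPM after E. coli (-0.89 ± 0.19, adjusted p = 0.0039). The high PBS value was that of replicate 2, and the fold change was -0.51 ± 0.11 without it (adjusted p = 0.00302). Rps29, on the head of the small subunit (chromosome 12, 69157722 to 69159186, minus strand), went from 270, 469 and 257 CPM to 157, 159 and 220 CPM (-0.89 ± 0.20, adjusted p = 0.00405), and by -0.56 ± 0.14 without replicate 2. Rps28 (chromosome 17, 33819027 to 33824562, minus strand) had a log2 fold change of -0.89 ± 0.15 (adjusted p = 0.000436). Without replicate 2 this was -0.67 ± 0.11. The exons of Rps28 overlap those of Kank3, so that reads within the overlap cannot be told apart.

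Rps27 depended little on that library. It was at 471, 503 and 510 CPM after PBS and at 286, 239 and 346 CPM after E. coli, which did not overlap (-0.77 ± 0.12, adjusted p = 0.000229), and changed by -0.76 ± 0.12 without replicate 2. Rps4x, an X-linked small-subunit gene and one of the 3 with the most counts, went from 2326, 3406 and 2200 CPM to 1598, 1540 and 1683 CPM (-0.72 ± 0.13, adjusted p = 0.000838). The fold change of Rps4x was -0.49 ± 0.08 without juvenile PBS replicate 2 (adjusted p = 0.000261). Rps6, the target of the S6 kinases downstream of mTOR (chromosome 4, 86854660 to 86857412, minus strand), was at 307, 272 and 247 CPM after PBS and at 173, 162 and 265 CPM after E. coli. Juvenile E. coli replicate 3 lay inside the PBS range, and the fall of -0.46 ± 0.16 (adjusted p = 0.0444) did not pass without juvenile PBS replicate 2 (-0.47 ± 0.17, adjusted p = 0.055). Rps6 did not pass in 7 of the 15 other settings, that one among them.

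Of the 43 large-subunit genes, 35 fell and 8 did not pass, with a median of -0.56. Rpl36 (chromosome 17, 56613416 to 56614243) had the largest fall of its subunit, from 86.3, 110 and 118 CPM after PBS to 61.1, 49.4 and 64.9 CPM after E. coli, with no overlap (-0.84 ± 0.14, adjusted p = 0.000408). Rpl11 and Rpl5, which with 5S ribosomal RNA bind the p53 regulator Mdm2 when ribosome assembly is disturbed, both fell. Rpl11 (chromosome 4, 136028265 to 136053428, minus strand) went from 210, 253 and 218 CPM to 142, 117 and 166 CPM (-0.68 ± 0.12, adjusted p = 0.000878). Rpl5 went from 929, 1076 and 814 CPM to 546, 557 and 731 CPM (-0.62 ± 0.12, adjusted p = 0.00162), and its exons overlap those of Fam69a. Neither pair of groups overlapped.

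The 8 large-subunit genes that did not pass were Rpl27a, Rpl41, Rpl29, Rpl24, Rpl7a, Rpl4, Rpl10 and Rpl15, and most of these are named here after their values were seen. Their adjusted p ran from 0.0525 (Rpl27a) to 0.74 (Rpl15). Rpl4, a core protein of the large subunit lining the exit tunnel (chromosome 9, 64173375 to 64178666), had the most counts of all members. It was at 2948, 4365 and 2620 CPM after PBS and at 2770, 2738 and 2710 CPM after E. coli, and only the second PBS library was clearly apart (-0.27 ± 0.14, adjusted p = 0.16). Without that library its log2 fold change was -0.02 ± 0.08. Rpl10 showed the opposite dependence, at -0.25 ± 0.17 (adjusted p = 0.31) with all libraries and -0.49 ± 0.09 (adjusted p = 0.000911) without replicate 2, where it passed. Rpl29 also passed without replicate 2 (-0.55 ± 0.10, adjusted p = 0.000874). Conversely, Rpl6, Rpl13a, Rpl23a and Rpl26, which fell with all libraries, did not pass without it. Rpl15, with the longest tract printed above, was at 124, 103 and 145 CPM after PBS and 127, 117 and 113 CPM after E. coli, which overlapped (-0.06 ± 0.11), and its exons overlap those of Nkiras1.

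All 3 stalk genes fell. Rplp0 went from 1675, 1551 and 1693 CPM to 1187, 1132 and 1260 CPM, with tight replicates and no overlap (-0.46 ± 0.08, adjusted p = 0.000802). Rplp1 went from 166, 260 and 163 CPM to 113, 115 and 135 CPM (-0.70 ± 0.15, adjusted p = 0.00371), and Rplp2 from 382, 324 and 421 CPM to 244, 223 and 300 CPM (-0.56 ± 0.12, adjusted p = 0.00362). In each case all 3 E. coli libraries lay below all 3 PBS libraries. The fall of Rplp1 was -0.44 ± 0.10 without juvenile PBS replicate 2 (adjusted p = 0.00501).

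The balance between the summed levels of the subunits differed in juvenile E. coli cells, which is given here as a description without a test. The ratio of summed CPM of the 43 large-subunit to the 31 small-subunit genes was 1.21, 1.23 and 1.16 after PBS and 1.33, 1.36 and 1.31 after E. coli in juveniles. In neonates it was 1.23 to 1.24 after PBS and 1.19 to 1.22 after E. coli. The 3 juvenile E. coli libraries were above the other 9. Rpl4, which did not pass, is the largest single part of the large-subunit sum (2739 ± 30.1 of 16620 CPM in juvenile E. coli cells). The ratio compares RNA counts between libraries and does not give the proportion of the subunits.

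Grouped by the start sequence, 12 of the 13 genes with a tract at a listed start fell in juveniles (median -0.67), and 38 of the 49 tested genes without one at any listed start (median -0.56). The exception with a tract was Rpl15. Only the listed base was searched, so pyrimidine runs that begin a few bases away, as in Rpl13a and Rpl27a, were not counted. The 49 genes are thus not shown to lack a tract. In neonates the 2 medians were 0.15 and 0.076, with no gene called in either.

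None of the paralogs passed in juveniles. Of the 6 tested, 0 fell and 0 rose in juveniles, with a median log2 fold change of -0.099. Rps27l, a near copy of Rps27 known as a p53 target (chromosome 9, 66946086 to 66949516), was at 17.0, 27.5 and 15.8 CPM after PBS and at 26.0, 23.2 and 21.5 CPM after E. coli in juveniles. The second PBS library was above all E. coli libraries and the other 2 below them, and the change of 0.23 ± 0.18 had an adjusted p of 0.38. Without that library Rps27l rose by 0.52 ± 0.14 (adjusted p = 0.0136), and it was also called higher by limma voom with sample weights (0.44 ± 0.13, adjusted p = 0.0134). In neonates it was at 20.1, 20.97 and 17.8 CPM after PBS and at 14.2, 13.3 and 15.7 CPM after E. coli, with every E. coli library below every PBS library, and did not pass (-0.45 ± 0.19, adjusted p = 0.34).

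Counts of Rps27l as a percentage of those of Rps27 were 5.82, 5.57 and 5.22 after PBS and 2.96, 3.38 and 4.07 after E. coli in neonates. In juveniles they were 3.61, 5.47 and 3.09 after PBS and 9.09, 9.70 and 6.21 after E. coli. The percentage was thus lower after E. coli in every neonatal library and higher in every juvenile one. Reads shared between a gene and its near copy could be split in the authors' counting, so these percentages serve to compare libraries and are not ratios of molecules.

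Rpl22l1 is the paralog of Rpl22, a large-subunit protein required for the development of alpha-beta T cells. Rpl22 fell in juveniles from 327, 480 and 303 CPM to 258, 257 and 282 CPM (-0.48 ± 0.13, adjusted p = 0.0181). Its fold change was -0.24 ± 0.09 without juvenile PBS replicate 2 (adjusted p = 0.0473), and it did not pass in 4 of the 15 other settings, among them those without juvenile E. coli replicate 1 or replicate 2. Rpl22l1 (chromosome 3, 28805436 to 28807424) was at 96.0, 153 and 85.0 CPM and at 82.4, 79.3 and 85.7 CPM, which overlapped (-0.43 ± 0.16, adjusted p = 0.0602, and -0.13 ± 0.09 without replicate 2). Its counts were 21.5% to 24.3% of those of Rpl22 after PBS and 23.4% to 27.6% after E. coli in neonates, and 28.0% to 31.9% and 30.4% to 31.9% in juveniles. All 6 juvenile libraries were above all 6 neonatal ones.

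Rpl36al, whose product is nearly the same as that of the X-linked Rpl36a, was at 130, 206 and 137 CPM after PBS and 130, 121 and 117 CPM after E. coli in juveniles (-0.37 ± 0.14, adjusted p = 0.0596, and -0.13 ± 0.08 without juvenile PBS replicate 2). Rpl36a fell, from 204, 308 and 193 CPM to 125, 120 and 155 CPM (-0.82 ± 0.16, adjusted p = 0.0015). The fold change of Rpl36a was -0.57 ± 0.12 without juvenile PBS replicate 2 (adjusted p = 0.00228). The paralog's counts were 63.9%, 66.9% and 71.2% of the parent's after PBS and 104%, 100.5% and 75.4% after E. coli. Rpl7l1, a paralog of Rpl7 that acts in ribosome assembly, was at 24.6, 35.9 and 20.2 CPM and at 26.4, 21.7 and 18.5 CPM (-0.28 ± 0.20, adjusted p = 0.34), while Rpl7 fell by 0.38 ± 0.10 on the log2 scale (adjusted p = 0.0123). Without juvenile PBS replicate 2 the values were -0.02 ± 0.18 for Rpl7l1 and -0.24 ± 0.08 for Rpl7 (adjusted p = 0.0288), and Rpl7 did not pass without juvenile E. coli replicate 2. Rpl39l, a paralog of Rpl39 known from the testis, and Rps4y2, annotated in GENCODE as the transcribed pseudogene Rps4l, had 135 and 183 counts in all 12 libraries. At that depth their changes (0.44 ± 0.62 and 0.08 ± 0.36) had wide errors. Rpl39 itself fell (-0.56 ± 0.15, adjusted p = 0.0151). Its fold change was -0.27 ± 0.08 without juvenile PBS replicate 2 (adjusted p = 0.0267), and it did not pass without juvenile E. coli replicate 2.

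**Figure D3:**
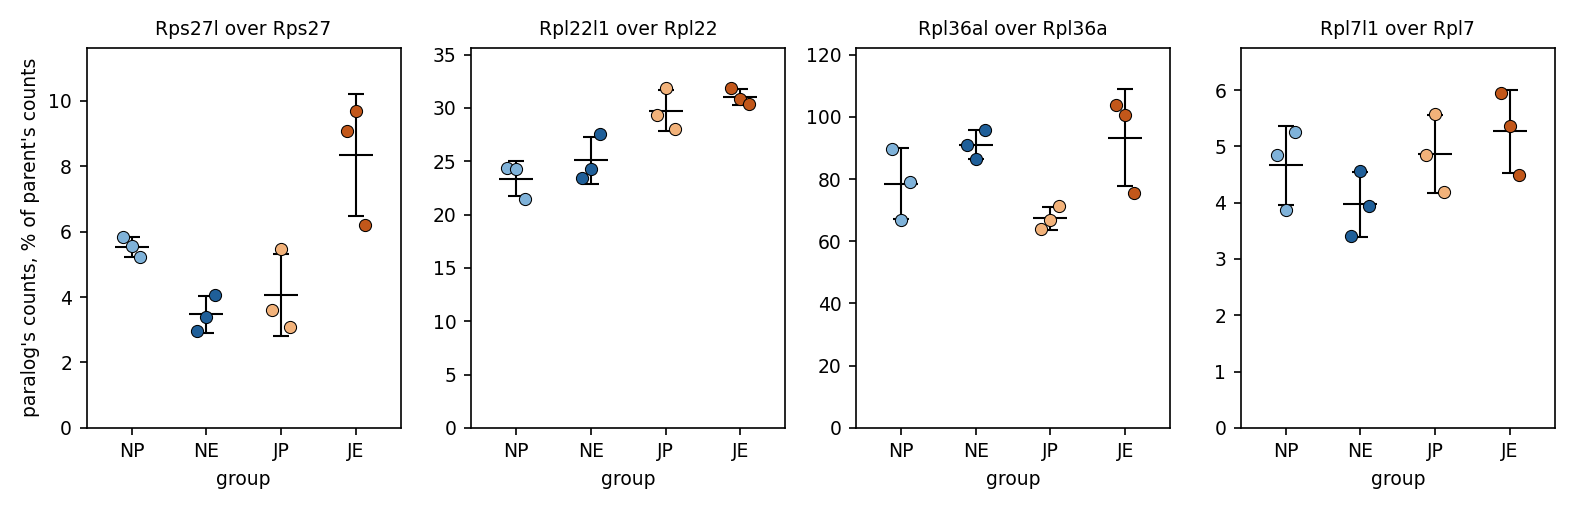
Counts of 4 paralogs as a percentage of the counts of their parent gene in the 4 groups (NP neonatal PBS, NE neonatal E. coli, JP juvenile PBS, JE juvenile E. coli). Points are libraries, horizontal bars means and error bars ± 1 SD (n = 3), and each panel has its own scale. Rps27l over Rps27 is lower after E. coli in neonates (2.96 to 4.07 against 5.22 to 5.82) and higher in juveniles (6.21 to 9.70 against 3.09 to 5.47), and Rpl22l1 over Rpl22 separates the ages.

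Whether the 2 ages responded differently was tested directly, as the juvenile response minus the neonatal one. The difference passed the test as negative for 45 of the 83 genes and as positive for 0, against 1.94% and 5.05% of all tested genes. The median difference was -0.66 on the log2 scale. By role, 23 of 31 small-subunit, 20 of 43 large-subunit and 2 of 3 stalk genes passed, and 0 of 6 paralogs. Rps14 had the largest difference (-1.35 ± 0.28, adjusted p = 0.0101), followed by Rpl36 (-1.16 ± 0.19, adjusted p = 0.00275), Rps27 (-1.01 ± 0.16, adjusted p = 0.00255), Rpl35 (-0.99 ± 0.22, adjusted p = 0.014) and Rps21 (-0.99 ± 0.27, adjusted p = 0.0424). The exons of Rpl35 overlap those of Arpc5l and Wdr38. Rps21 differed by -0.61 ± 0.15 without juvenile PBS replicate 2 (adjusted p = 0.013), and did not pass in 9 of the 20 other settings. Rplp0 and Rplp2 differed by -0.60 ± 0.11 (adjusted p = 0.00611) and -0.78 ± 0.17 (adjusted p = 0.0132), and Rplp1 by -0.74 ± 0.21 (adjusted p = 0.0501), which did not pass. Without juvenile PBS replicate 2 Rplp1 differed by -0.48 ± 0.14 and passed (adjusted p = 0.0309). Rpl11 differed by -0.67 ± 0.17 (adjusted p = 0.0279) and did not pass in 7 of the 20 other settings. Rpl5 (-0.48 ± 0.17, adjusted p = 0.10) and Rps6 (-0.40 ± 0.22, adjusted p = 0.32) did not pass.

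The number of genes in this difference depended on single libraries. So did the share of all tested genes called in either direction, given in brackets. The number was 21 without juvenile E. coli replicate 2 (3.29%), 23 without neonatal E. coli replicate 1 (3.31%), 26 without neonatal PBS replicate 1 (3.62%) and 27 without neonatal PBS replicate 3 (3.99%). Without juvenile PBS replicate 2, where 13.8% of all genes were called, it was 52 negative and 1 positive, the latter being Rps27l (0.97 ± 0.19, adjusted p = 0.00445, against 0.68 ± 0.26 and adjusted p = 0.13 with all libraries).

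**Figure D4:**
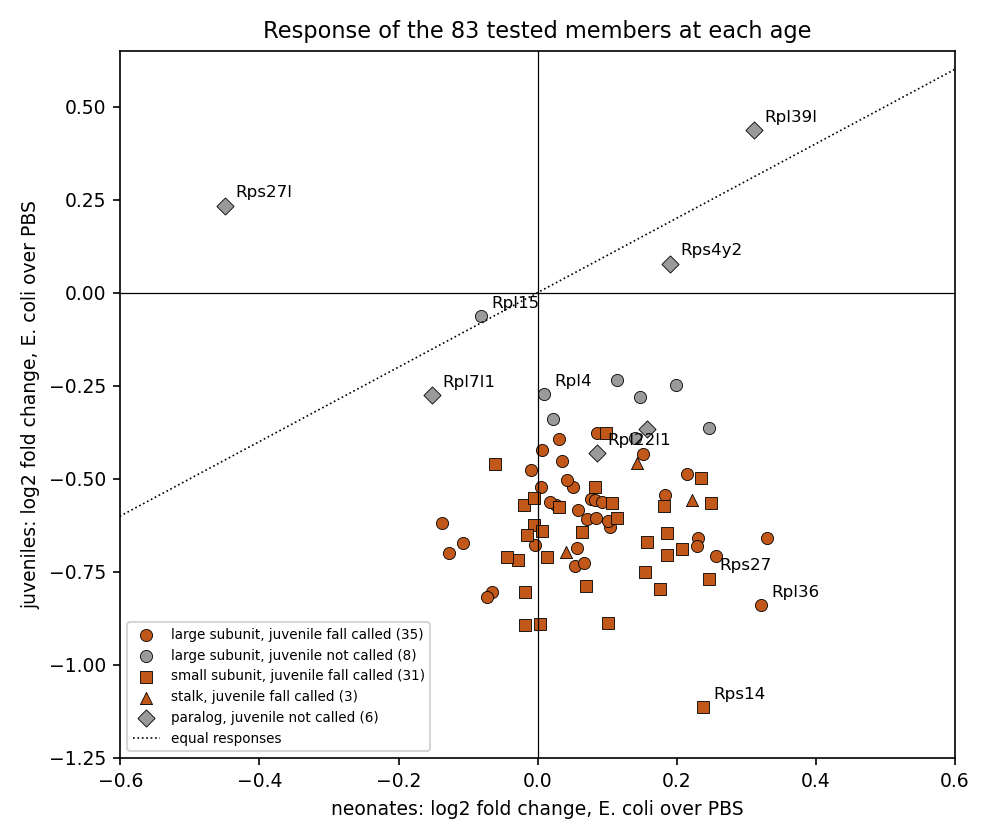
Log2 fold change of E. coli over PBS in neonates (horizontal) and juveniles (vertical) for the 83 tested genes, with the symbol giving the role and colour those that fell in juveniles. The 2 responses share no libraries, and the dotted line marks equal responses. The 69 coloured genes lie below 0 vertically and on both sides of 0 horizontally, Rps14 is the lowest at -1.11, and Rps27l is the only gene negative in neonates and positive in juveniles.

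After PBS, levels of most genes were somewhat lower in neonates than in juveniles, and few passed. Of the 83 genes 5 were lower in neonates and 0 higher, against 1.75% and 2.32% of all tested genes (4.08% in either direction), with a median log2 difference of -0.25. The 3 neonatal libraries lay below the 3 juvenile ones in 28 genes, against 10.2% of all. The 5 were Rps27 (-0.48 ± 0.12, adjusted p = 0.0268), Rpl37a (-0.48 ± 0.13, adjusted p = 0.0459), Rps24 (-0.48 ± 0.11, adjusted p = 0.0211), Rps16 (-0.44 ± 0.10, adjusted p = 0.0251) and Rpl8 (-0.35 ± 0.09, adjusted p = 0.0454). Rps24, a small-subunit protein, was at 809, 827 and 797 CPM in neonates and 1022, 1344 and 1015 CPM in juveniles, with no overlap. The count was 2 without juvenile PBS replicate 2 (Rps27 and Rps24), with a median of -0.15 and with 5.94% of all genes called. It was 10 without juvenile PBS replicate 3 (3.24% of all genes), and 0 without neonatal PBS replicate 1 (1.57%) or replicate 3 (2.90%).

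After E. coli the order was the other way round. Of the 83 genes 41 were higher in neonates, against 6.42% of all tested genes, and 1 was lower, against 11.3%, with a median log2 difference of 0.36. The neonatal libraries lay above the juvenile ones in 62 genes, against 19.4% of all. Rps14 was at 90.1, 70.6 and 81.0 CPM in neonates against 38.2, 32.0 and 46.0 CPM in juveniles (1.05 ± 0.20, adjusted p = 0.00179). Rps3, a small-subunit protein at the entry of the messenger RNA (0.83 ± 0.15, adjusted p = 0.00119), Rpl35 (0.82 ± 0.15, adjusted p = 0.00168), Rpl28 (0.81 ± 0.15, adjusted p = 0.00119) and Rpl36 (0.78 ± 0.14, adjusted p = 0.000847) came next. The exons of Rpl35 overlap those of Arpc5l and Wdr38, and the exons of Rpl28 overlap those of Ube2s. Rplp0 was higher in neonates by 0.59 ± 0.08 (adjusted p = 9.93e-05). Rps27l was the 1 gene lower in neonates, at 14.2, 13.3 and 15.7 CPM against 26.0, 23.2 and 21.5 CPM in juveniles (-0.71 ± 0.18, adjusted p = 0.0146). It did not pass without juvenile E. coli replicate 1 (-0.63), neonatal E. coli replicate 1 (-0.70) or neonatal E. coli replicate 2 (-0.65). The count of called genes was 25 without neonatal E. coli replicate 1 and 26 without juvenile E. coli replicate 1 or replicate 2, where 9.89% to 10.2% of all genes were called, against 17.8% with all libraries. This comparison and the one after PBS share their libraries with the 2 responses.

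Other genes of the translation machinery were read from lists of related genes. Of all tested genes, 9.42% fell and 15.4% rose in juveniles, and differences between lists were not tested. Of 6 genes for ubiquitin-fused and ribosome-associated proteins, 4 fell in juveniles. Their sums were 3952, 4949 and 3588 CPM after PBS and 2988, 2877 and 3288 CPM after E. coli. Among those that fell was Fau, which encodes the small-subunit protein S30 fused to a ubiquitin-like domain (120 to 68.5 CPM by group mean, -0.80 ± 0.12, adjusted p = 0.000181). Gnb2l1, which encodes the ribosomal scaffold Rack1, went from 1018 ± 244 to 663 ± 15.4 CPM (mean ± SD, -0.62 ± 0.12, adjusted p = 0.00212). Tpt1 also fell (-0.42 ± 0.10, adjusted p = 0.00867). Fau and Gnb2l1 also differed between the 2 responses (-0.91 ± 0.17, adjusted p = 0.00495, and -0.72 ± 0.18, adjusted p = 0.0231), and 0 of the 6 passed in neonates. Of 8 elongation factor genes 5 fell in juveniles, and the sums were 11422, 13692 and 11521 CPM after PBS and 9602, 9301 and 9509 CPM after E. coli. Eef1b2 went from 1432 ± 353 to 917 ± 62.7 CPM (mean ± SD, -0.64 ± 0.13, adjusted p = 0.00272). Eef1a1, which delivers aminoacyl-tRNA, went from 7350 ± 1319 to 5669 ± 59.2 CPM (-0.37 ± 0.10, adjusted p = 0.0125). In both lists juvenile PBS replicate 2 had its group's highest sum, and fold changes without it are not given for their genes. None of the 8 passed in the difference of responses. After E. coli, 5 of the 8 were higher in neonates than in juveniles, among them the translocase Eef2 (0.42 ± 0.09, adjusted p = 0.00362) and the kinase that inhibits it, Eef2k (0.85 ± 0.18, adjusted p = 0.00375).

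Of 13 subunits of initiation factor 3, 0 passed in juveniles (median -0.15), and of 21 other initiation factor genes 1 rose (Eif4g1, 0.22 ± 0.08, adjusted p = 0.0495) and 0 fell (median -0.12). Of 75 tested genes for proteins of the mitochondrial ribosome, 4 fell and 0 rose, with a median of -0.16 and the lowest at -0.63. Of the 26 rows for pseudogenes of ribosomal protein genes, 14 were tested, and 1 fell in juveniles (median -0.39). Juvenile PBS replicate 2 held its group's highest sum in each of these lists, and medians without it were not computed. Initiation factor 3 sums were 4326, 5830 and 3968 CPM after PBS and 4668, 4603 and 4313 CPM after E. coli. Mitochondrial sums were 1757, 2262 and 1726 CPM against 1769, 1692 and 1668 CPM. Pseudogene sums were 101, 178 and 83.1 CPM against 87.5, 85.2 and 84.3 CPM.

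Of 25 genes for ribosome assembly and export, 7 fell and 1 rose in juveniles. Wdr12, a factor of large-subunit assembly, went from 63.9 ± 2.33 to 41.7 ± 1.13 CPM (-0.62 ± 0.11, adjusted p = 0.000738), and Nop10, of the RNA-modifying H/ACA particles, from 33.3 ± 3.02 to 20.95 ± 1.97 CPM (-0.67 ± 0.12, adjusted p = 0.00107). The subunits of RNA polymerase I Polr1a (-0.41 ± 0.08, adjusted p = 0.00185) and Polr1b (-0.61 ± 0.14, adjusted p = 0.00537) also fell. Of 18 genes that control translation of ribosomal protein messenger RNAs, 3 fell and 1 rose in juveniles. Sesn1, an inhibitor of mTOR complex 1 signalling, fell from 259 ± 33.0 to 105 ± 21.2 CPM (-1.30 ± 0.13, adjusted p = 7.05e-06), and also fell in neonates, from 192 ± 9.82 to 122 ± 9.42 CPM (-0.66 ± 0.13, adjusted p = 0.0186), with a difference between the responses of -0.65 ± 0.18 (adjusted p = 0.0439). Pdcd4, an inhibitor of the initiation helicase (-0.85 ± 0.11, adjusted p = 8.38e-05), and Tsc1, a restraint on mTOR complex 1 (-0.42 ± 0.12, adjusted p = 0.0178), fell, and Ddit4, another inhibitor of that complex, rose from 16.7 ± 1.70 to 33.99 ± 10.1 CPM (1.03 ± 0.21, adjusted p = 0.00279). The list's median was -0.045.

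Transcripts of other cell states and cell types moved with the juvenile fall. All 10 naive T cell genes fell in juveniles, with summed levels of 9759 to 11002 CPM after PBS and 6191 to 8107 CPM after E. coli, against 9939 to 11515 and 10191 to 11374 CPM in neonates. Of 16 cell cycle genes 14 rose in juveniles, with sums of 1924 to 3300 CPM after PBS and 3907 to 5873 CPM after E. coli. Neonatal sums were 4020 to 4934 and 3746 to 4101 CPM. T cell identity genes summed to 5357 to 6000 CPM after PBS and 4390 to 4756 CPM after E. coli in juveniles, and 4 of 7 fell. Monocyte and macrophage genes went from 292 to 464 CPM after PBS to 739 to 1071 CPM after E. coli (7 of 11 rose and 2 fell). Dendritic and MHC class II genes went from 207 to 326 CPM to 465 to 571 CPM (5 of 7 rose), lung epithelial genes from 34.8 to 42.1 CPM to 90.9 to 205 CPM (2 of 6 rose), and cytotoxic and CD8 T cell genes from 40.2 to 116 CPM to 202 to 391 CPM (2 of 5 rose). Neutrophil genes went from 0.165 to 3.17 CPM to 8.51 to 20.9 CPM (3 of 4 tested rose), with Elane at 0 in all libraries. In neonates, where no ribosomal protein gene passed, monocyte and macrophage genes went from 211 to 370 CPM to 280 to 502 CPM (1 of 11 rose) and neutrophil genes from 0.694 to 1.93 CPM to 9.83 to 50.4 CPM (3 of 4 tested rose). Of the other lists in juveniles, B cell genes (7 tested), fibroblast genes (4) and erythroid genes (1) had none that passed, endothelial genes had 3 that rose and 1 that fell at sums of 227 to 243 and 224 to 243 CPM, and immature T cell genes had 1 of 6 that fell. The part of these transcripts in the fall of ribosomal protein genes was not tested.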

How the data were processed

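RNA of 12 libraries was amplified with a kit that does not mark strand and sequenced as paired ends, per the labels' protocols. Base calling with CASAVA 1.8.4 and alignment with STAR to GRCm38 (mm10) are given per the submitters' processing notes. The deposited values are whole-number counts per gene symbol, not normalized, made by the authors with SeqMonk as the table's name says. The annotation, strand setting, filters and version stay unstated (not given in the sources used here). Since the kit keeps no strand, reads where exons of different genes overlap cannot be told apart, which concerns 12 of the 85 genes. Reads may also be split with the 299 pseudogenes that GENCODE M21 names for 61 of the 85. No library was a duplicate of another of its group beyond counting error, and pairs across groups were not compared in this way.

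Genes were filtered with filterByExpr (minimum count 10, minimum total 15), leaving 11062 of 19434 and 99.9% of counts. Differences were tested with the quasi-likelihood F test of edgeR 4.0.16 in R 4.3.3, fitted to 4 group means with TMM scaling and no covariates, with Benjamini-Hochberg adjustment over all 11062 genes and a threshold of 0.05, and the common biological coefficient of variation was 0.123. SE is the log2 fold change over the square root of F. The script was tested on simulated counts. Other settings tried were RLE and upper-quartile scaling, TMM factors without the members, DESeq2 1.42.0, limma 3.58.1 voom with sample weights, no filter, only the groups compared, a replicate block, each library left out, and neonatal PBS replicate 1 with juvenile PBS replicate 2 left out. Coordinates are GRCm38 from GENCODE M21. Members and lists were chosen with earlier results of these data known. Named per comparison were the 5 largest called changes in each direction, called members against the majority, the 3 of highest level, stalk genes, paralogs and parents, Rpl5, Rpl11 and Rps6, and up to 4 called genes of smallest p per related list. One gene this rule selects is not reported here. Others are said to be picked after their values were seen. DNA methylation was not analysed here.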

Additional observations from a re-analysis of the deposited data

Results flagged for a closer look

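The responses to E. coli at the 2 ages differed, by the test of the difference itself (juvenile minus neonatal, edgeR quasi-likelihood), for 45 of the 83 tested genes, all more negative in juveniles. Of all tested genes, 1.94% were called negative and 5.05% positive. With 1 library left out at a time the members called ran from 21 to 56. At these ends 3.29% and 5.72% of all tested genes were called in either direction. The 5 largest differences were those of Rps14 (-1.35 on the log2 scale), Rpl36 (-1.16), Rps27 (-1.01), Rpl35 (-0.99) and Rps21 (-0.99). The first 4 stayed past the threshold in all 20 other settings run, and Rps21 did not pass in 9 of them and was at -0.61 without juvenile PBS replicate 2. The exons of Rpl35 overlap those of Arpc5l and Wdr38.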

How the results depend on the processing

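No called change of a named gene reversed under any other setting, and over all such calls and settings 598 tests stayed past the threshold and 92 did not. With 1 library left out at a time, the members that fell in juveniles numbered 53 to 73 (69 with all), those that differed between the responses 21 to 56 (45), with a median from -0.73 to -0.50 (-0.66), those that differed between ages after PBS 0 to 10 (5) and after E. coli 25 to 47 (42). The share of all tested genes called in either direction at the ends of these ranges was 14.8% and 21.1% for the juvenile falls. It was 3.29% and 5.72% for the difference of responses, 1.57% and 3.24% after PBS, and 9.89% and 18.4% after E. coli. At the ends for the juvenile falls, 513 and 892 of all tested genes fell. With all libraries the shares called in either direction were 24.8%, 7%, 4.08% and 17.8%. In neonates 0 were called throughout, against 0.49% to 3.01% of all genes. Percentages in brackets below are shares of all tested genes called in either direction. Without neonatal PBS replicate 1 and juvenile PBS replicate 2 together, the median difference of responses was -0.48 and 0 members differed after PBS (3.24%). That last count was 11 with DESeq2 (6.59%), 10 without a filter on low counts (4.09%) and 1 with only the groups compared (2.68%). After E. coli limma voom called 72 (34.4%). Only the groups compared gave 58 falls in juveniles (17.9%) and 60 calls after E. coli (22.3%). Upper-quartile scaling gave 75 falls in juveniles (26.1%). Over all genes, that scaling moved the juvenile split from 1705 higher and 1042 lower to 1468 and 1415. The cause of these shifts was not tested.

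Replicate numbers did not pair the samples: deviations of same-numbered libraries from their group means correlated from -0.18 to 0.22, and in 6 of 36 comparisons a library's best match had its own number. With the replicate block the calls were 0 in neonates, 68 in juveniles, 37 in the difference of responses, 3 between ages after PBS and 37 after E. coli. The shares of all tested genes called were 0.958%, 23.2%, 5.83%, 3.76% and 16.1% in the same order. Genes of few counts, such as Rpl39l and Rps4y2, are limited by depth.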
